A study of Homo sapiens with 12 samples.

Results

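The genes described here are 9 enzymes and carriers of aspartate, glutamine and proline metabolism: ASNS, GLUL, GOT1, GOT2, GPT2, ALDH18A1, PYCR1, SLC25A12 and SLC25A13. They were chosen by name, for their place in these pathways, with earlier results of these data known. All 9 are among the 36601 genes of the expression table and among the 15376 genes tested. KP4, an established human cell line from a pancreatic ductal carcinoma that the labels give as WT, was treated for 24 h with the vehicle DMSO, with 10 mM metformin (Met), with 5 nM FK866 (FK) or with both drugs (Met+FK). Ribosomal RNA-depleted RNA was sequenced in 12 libraries, 3 per treatment, numbered as replicates 1 to 3. The labels do not say that replicates came from separate cultures, so p-values measure the spread between these libraries, which may be technical, and all values describe a single cell line.

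Metformin is known to block respiratory complex I, which oxidizes NADH, and FK866 inhibits NAMPT, the enzyme that salvages nicotinamide into NAD. Proliferating cells make aspartate by transamination of oxaloacetate with glutamate, and they need it for protein, purines, pyrimidines and asparagine. Oxaloacetate is made from malate with NAD as the electron acceptor, so that aspartate synthesis is known to become limiting when respiration is blocked. Proline synthesis starts from glutamate as well, and it consumes reduced cofactors.

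Each library held between 30667735 and 41052203 read pairs. The values are normalized counts, that is read pairs per gene divided by a size factor per library, and size factors lay between 0.867 and 1.21. Of 8 ductal epithelial markers, in 5 the mean normalized count reached 100, with KRT18 highest, while KRT19 (33.7), CDH1 (47.4) and EPCAM (8.93) were low. The 4 acinar and 2 islet markers did not exceed 1.65 in any library. PTPRC, a leukocyte marker, had a mean of 196, CD68 a mean of 829 and COL1A1, a fibroblast marker, a mean of 139, whereas CD3E, COL1A2 and DCN were at or near 0. In bulk RNA, fewer cells and less RNA per cell cannot be told apart.

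Metformin changed 8 of the 9 genes, in opposite directions. The test was limma-trend, run on log2 values of the normalized counts after adding 1, with p-values adjusted by the Benjamini-Hochberg method over all genes tested. With metformin alone against DMSO, 4 genes rose (ASNS, PYCR1, GOT1 and GPT2), 4 fell (GOT2, GLUL, SLC25A13 and ALDH18A1) and SLC25A12 did not pass the threshold of 0.05. For comparison, 24.9% of all genes tested rose and 25.9% fell. Of the 9 genes, 5 were DEGs, defined by an adjusted p under 0.05 and a change of over 1.5-fold, against 23% of all genes tested. The median log2 fold change was 0.03 over the 9 genes and 0.01 over all genes tested.

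**Figure D1:**
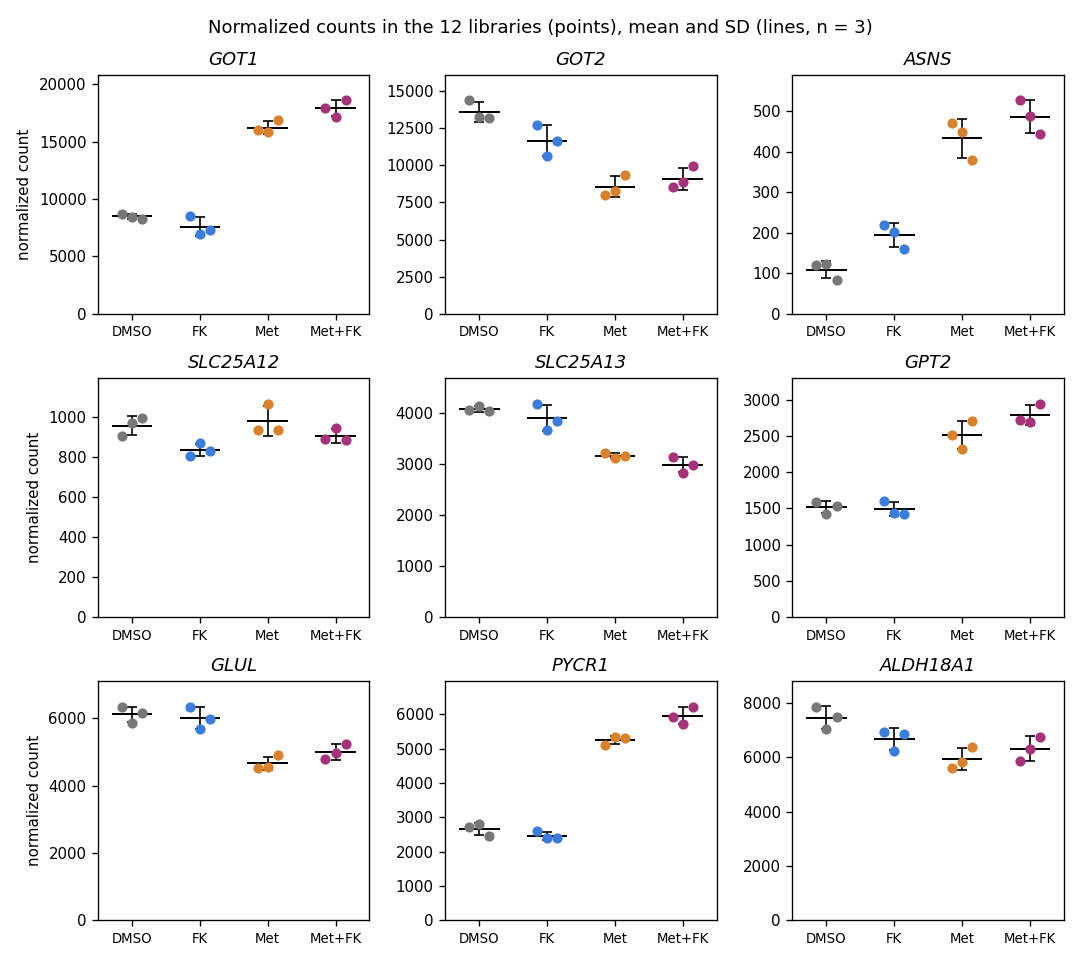
Normalized counts (y axes, from 0) of the 9 genes in each library (points), by treatment (x axes), with the mean and SD of 3 libraries (lines). GOT1, ASNS, GPT2 and PYCR1 were higher in the 6 libraries with metformin than in the 6 without, GOT2, GLUL and SLC25A13 were lower in all 6, and SLC25A12 stayed between 804 and 1065.

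The aspartate aminotransferases, which interconvert aspartate and oxaloacetate, moved in opposite directions: the cytosolic enzyme rose and the mitochondrial enzyme fell. GOT1 (ENSG00000120053, chr10:99396870-99430624 in hg38, minus strand), the cytosolic enzyme, had normalized counts of 8728, 8477 and 8287 in DMSO and of 16001, 15850.5 and 16879 in Met. Both ranges are narrow and far apart. The fold change was 1.91 (log2 0.93, SE 0.07, adjusted p = 1.95e-07). GOT2 (ENSG00000125166, chr16:58707131-58734342, minus strand), the mitochondrial enzyme, had 14381, 13281 and 13163 in DMSO and 8016.5, 8305 and 9347 in Met. No Met library reached the lowest DMSO library. Its log2 fold change was -0.67 (SE 0.09, adjusted p = 1.74e-05), or 1.59-fold lower. On the scale of log2 fold changes, GOT1 stood at percentile 94.6 of all genes tested and GOT2 at percentile 8.47.

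In the FK libraries GOT1 had 8509.7, 6980.2 and 7321 and GOT2 12712, 10637.5 and 11658. All 3 GOT2 values lay under the DMSO range, and replicate 1 of GOT1 lay within it. FK against DMSO gave a log2 fold change of -0.17 for GOT1 (adjusted p = 0.106) and of -0.22 for GOT2 (adjusted p = 0.0665), neither past the threshold. With the replicate number as a block both passed, at adjusted p = 0.0413 and 0.0215 by limma, as they did without replicate 1 of FK (log2 -0.25 and adjusted p = 0.0168 for GOT1, log2 -0.29 and adjusted p = 0.0275 for GOT2). Without replicate 2 of FK both were smaller (log2 -0.11 and -0.16, adjusted p = 0.389 and 0.266). With the GC and length trend removed they were -0.07 and -0.12 (adjusted p = 0.399 and 0.241), and neither passed with the block added to that correction (0.352 and 0.204). When metformin was added to FK, GOT1 rose to 17969.6, 17192.5 and 18608, which was 2.36-fold (log2 1.24, SE 0.07, adjusted p = 1.26e-08). GOT2 fell to 8516, 8868 and 9942, a log2 fold change of -0.36 (SE 0.09, adjusted p = 0.00354), which is under the 1.5-fold limit. Reads over 162 of the 2421 bases (6.69%) of the canonical GOT2 transcript could also come from an antisense gene, AC106793.1, since the strand setting of the counting is not stated.

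The ratio of GOT1 to GOT2 within each library does not depend on how libraries were scaled. It was 0.607, 0.638 and 0.630 in DMSO, 0.669, 0.656 and 0.628 in FK, 1.996, 1.91 and 1.81 in Met, and 2.11, 1.94 and 1.87 in Met+FK. All 6 libraries with metformin lay above all 6 without. The mean log2 ratio was higher by 1.60 with metformin than without, or 3.04-fold (two-sided exact permutation test with metformin labels permuted within the libraries with and without FK866, p = 0.005, the smallest of 400 arrangements, also 0.005 after adjustment over 4 ratios). This p-value and those of the other ratios restate the tests per gene on the same libraries and are not separate support. Per kb of canonical transcript, GOT1 made up 43.3% ± 0.639 (SD, n = 3) of the sum of both genes in DMSO, 44.3% ± 0.806 in FK, 69.9% ± 1.05 in Met and 70.7% ± 1.27 in Met+FK. GOT1 thus went from the lower to the higher of the 2 mRNAs per length.

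**Figure D2:**
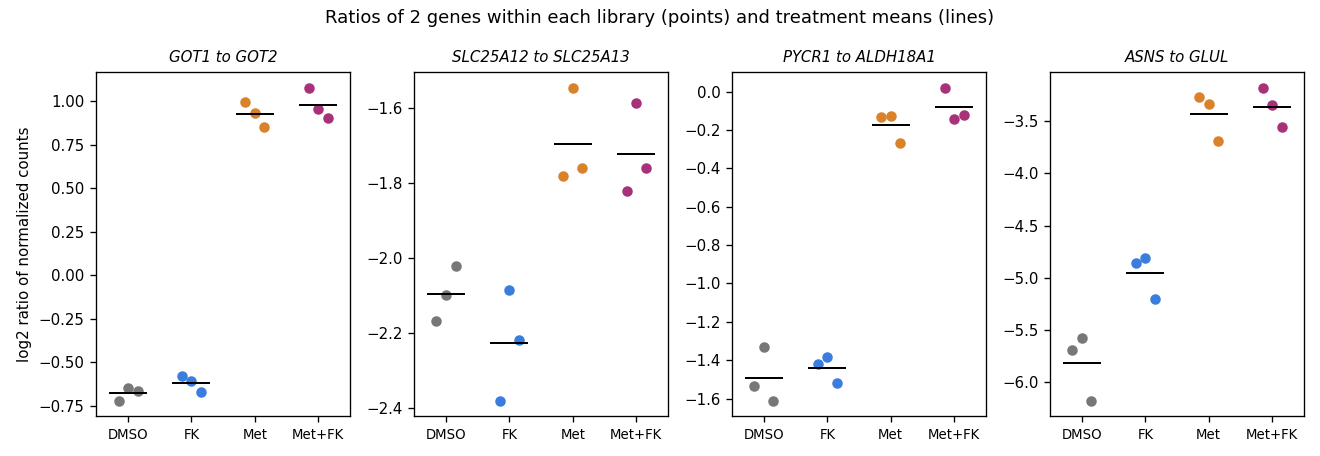
Log2 ratios of normalized counts (y axes) of 4 gene pairs within each library (points), by treatment (x axes), with treatment means (lines). In each pair the 6 libraries with metformin lie above the 6 without, and ASNS to GLUL is also higher in FK than in DMSO.

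The stretches before the start sites of both genes are shown because GOT1 and GOT2 encode the same reaction and moved apart. They are the 250 bases before the RefSeq start (GRCh38.p14, minus strand, 5′ to 3′), GOT1 at chr10:99430625-99430874 and GOT2 at chr16:58734317-58734566. Capitals mark a match to the letters TGATG, any base, AA, the core of the composite sites that C/EBP and ATF proteins bind, searched on both strands.
GOT1: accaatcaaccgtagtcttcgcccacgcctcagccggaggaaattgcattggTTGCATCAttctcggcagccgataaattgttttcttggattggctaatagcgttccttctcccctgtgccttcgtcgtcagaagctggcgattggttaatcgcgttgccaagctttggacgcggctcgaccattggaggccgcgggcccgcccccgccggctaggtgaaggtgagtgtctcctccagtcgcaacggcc
GOT2: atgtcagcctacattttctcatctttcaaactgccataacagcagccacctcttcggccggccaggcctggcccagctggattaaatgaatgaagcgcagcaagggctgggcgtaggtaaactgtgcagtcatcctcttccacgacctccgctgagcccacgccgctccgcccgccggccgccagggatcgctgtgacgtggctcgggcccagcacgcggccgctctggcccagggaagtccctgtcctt
The GOT1 window held the core on the reverse strand, beginning at position -198, where -1 is the last base before the start. The GOT2 window held no match to it. Of 35116 such windows over all genes, 1104 (3.14%) held this core. Neither window matched CACGTG, an E-box (2228 windows, 6.34%), or the ER stress element, CCAAT and CCACG separated by 9 bases (26 windows, 0.0740%). A match describes the sequence and does not show that a protein binds there.

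The mitochondrial aspartate-glutamate carriers, which export aspartate made in mitochondria in exchange for glutamate, differed from each other. SLC25A13 (citrin, ENSG00000004864, chr7:96120220-96322147, minus strand) had 4065, 4149 and 4046 in DMSO and 3217, 3114 and 3164 in Met. The ranges do not overlap, and the SD was under 2% of the mean in each (1.34% and 1.62%). The log2 fold change was -0.37 (SE 0.07, adjusted p = 0.000516), or 1.29-fold lower. In FK it had 4193, 3679 and 3850.05, around the DMSO values (log2 -0.07, adjusted p = 0.478), and in Met+FK 3142, 2838 and 2992 (log2 -0.38 against FK, SE 0.07, adjusted p = 0.000455).

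SLC25A12 (aralar, ENSG00000115840, chr2:171783405-171999859, minus strand) had 904, 968 and 995 in DMSO, 934, 1065 and 933 in Met, 804, 866 and 826 in FK and 887, 944 and 882 in Met+FK. The Met values overlapped the DMSO range, and the 3 FK values lay under it. With Met against DMSO its log2 fold change was 0.03 (95% confidence interval -0.15 to 0.21, adjusted p = 0.774), so that a change of more than 0.21 upwards or 0.15 downwards on the log2 scale lies outside the interval. The sign of this small difference was not stable, since the value became -0.13 (adjusted p = 0.102) with the trend over GC content and length removed. With FK against DMSO it was -0.20 (adjusted p = 0.0863), and it passed with the replicate block (adjusted p = 0.0260) and with the GC and length trend removed (log2 -0.38, adjusted p = 0.00398). With that trend removed it also passed for Met+FK against FK (log2 0.17, adjusted p = 0.0361, against 0.12 and 0.265 without the correction) and for Met+FK against DMSO (log2 -0.21, adjusted p = 0.0118, against -0.08 and 0.445). The canonical SLC25A12 transcript has the lowest GC content of the 9 genes, 42.5%.

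Per library, the ratio of SLC25A12 to SLC25A13 was on average 0.234 ± 0.0119 in DMSO, 0.214 ± 0.0218 in FK, 0.309 ± 0.0285 in Met and 0.303 ± 0.0261 in Met+FK (SD, n = 3). The highest ratio without metformin, 0.246, lay under the lowest with it, 0.282. The mean log2 ratio was higher by 0.45 with metformin, or 1.37-fold (exact permutation test, p = 0.005, adjusted 0.005).

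ASNS, which makes asparagine from aspartate with glutamine as the nitrogen donor, had the largest fold change of the 9 genes with metformin. It was the only 1 of them to pass with FK866 alone in the fit of all 12 libraries without a replicate block or GC correction. ASNS (ENSG00000070669, chr7:97851677-97872542, minus strand) had 121, 122 and 83.9 in DMSO, 218, 202 and 161 in FK, 470.3, 449.8 and 378 in Met and 527, 489 and 445 in Met+FK. The 3 ranges of DMSO, FK and Met are separate and ascend in that order, and replicate 3 was the lowest in each treatment. Met against DMSO was 3.98-fold (log2 1.99, SE 0.16, adjusted p = 1.85e-07), at percentile 99.5 of all genes tested. FK against DMSO was 1.78-fold (log2 0.83, SE 0.16, adjusted p = 0.0109). This call held in 17 of 18 alternative settings and was lost when only the 6 libraries compared were fitted (adjusted p = 0.0543). Met+FK against FK was 2.52-fold (log2 1.34, SE 0.16, adjusted p = 8.65e-06).

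The level of ASNS rests on few reads, 82 to 594 read pairs per library, and may be too low. On the same strand, 2374 of the 2385 bases (99.5%) of its canonical transcript are shared with a long noncoding RNA gene of the annotation, listed as AC079781.5. Reads there may have been dropped or given to either gene, which the sources used here do not state. AC079781.5 itself had a log2 fold change of -0.16 with Met against DMSO (adjusted p = 0.333).

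The site in the ASNS promoter is shown because ASNS, like GOT1, rose with metformin and holds the same core. With FK against DMSO their log2 fold changes differed, 0.83 for ASNS and -0.17 for GOT1. A part of the core in these changes was not tested. The 30 bases at chr7:97872458-97872487 (GRCh38.p14, RefSeq, minus strand) are given with the match to that core in capitals.
ASNS: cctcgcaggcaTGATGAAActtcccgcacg
The match begins at position -68 of one RefSeq start. The window of the other ASNS start in the table had no match. Windows were found for 7 of the 9 genes. Those of GLUL, SLC25A12, SLC25A13 and ALDH18A1 did not hold the core. An E-box stood in the windows of ALDH18A1 and SLC25A13, at positions -136 and -154, and in none of the windows of GLUL, GOT2, GOT1, ASNS or SLC25A12. Over all genes, 6.34% of windows held it. GPT2 and PYCR1 had no window in the table, so that genes that rose and genes that fell could not be compared.

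GLUL, or glutamine synthetase, which makes glutamine from glutamate and ammonia, fell. GLUL (ENSG00000135821, chr1:182381704-182392206, minus strand) had 6329, 5874 and 6154 in DMSO and 4539, 4547 and 4896 in Met, with no overlap. The log2 fold change was -0.39 (SE 0.07, adjusted p = 0.000290), or 1.31-fold lower. In FK the values 6345, 5695 and 5982 covered the DMSO range (log2 -0.03, adjusted p = 0.782), and in Met+FK they were 4783, 4963 and 5239, lower than in FK (log2 -0.27, SE 0.07, adjusted p = 0.00621). The mean ratio of ASNS to GLUL was 0.0179 in DMSO, 0.0322 in FK, 0.0933 in Met and 0.0979 in Met+FK. Its log2 was higher by 1.99 with metformin than without (exact permutation test, p = 0.005, adjusted 0.005).

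GPT2, the mitochondrial alanine aminotransferase, which makes alpha-ketoglutarate and alanine from glutamate and pyruvate, rose with metformin. GPT2 (ENSG00000166123, chr16:46884362-46931289, plus strand) had 1595, 1426 and 1532 in DMSO and 2511, 2324 and 2707 in Met. The lowest Met library lay well above the highest DMSO library. The change was 1.65-fold (log2 0.73, SE 0.08, adjusted p = 6.40e-06). In FK it had 1603, 1437 and 1428, close to the DMSO range (log2 -0.03, adjusted p = 0.816), and in Met+FK 2730.3, 2701 and 2950.3, or 1.88-fold over FK (log2 0.91, SE 0.08, adjusted p = 7.82e-07).

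The proline genes moved in opposite directions, the last enzyme rising and the earlier one falling. PYCR1 (ENSG00000183010, chr17:81932384-81942412, minus strand), the mitochondrial reductase that completes proline synthesis, had 2719, 2793 and 2450.1 in DMSO and 5105, 5351 and 5295 in Met. Every Met library was far above every DMSO library. The change was 1.98-fold (log2 0.99, SE 0.07, adjusted p = 1.02e-07). In FK it had 2588, 2381 and 2404 (log2 -0.11 against DMSO, adjusted p = 0.251). In Met+FK it had 5927, 5723 and 6218, or 2.42-fold over FK (log2 1.28, SE 0.07, adjusted p = 8.16e-09). Of the canonical PYCR1 transcript, 450 of 2269 bases (19.8%) overlap an antisense gene, AC145207.4.

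ALDH18A1 (ENSG00000059573, chr10:95605941-95656711, minus strand), the bifunctional enzyme that turns glutamate into the proline precursor pyrroline-5-carboxylate, had 7864, 7029.9 and 7481 in DMSO and 5592, 5835 and 6366 in Met. The ranges do not overlap, though the gap is small. The log2 fold change was -0.33 (SE 0.08, adjusted p = 0.00274), or 1.26-fold lower. In FK it had 6932, 6223 and 6878, under the DMSO range (log2 -0.16, adjusted p = 0.135), and in Met+FK 5850.5, 6318 and 6768, which overlap FK (log2 -0.08, 95% confidence interval -0.25 to 0.09, adjusted p = 0.429). The mean ratio of PYCR1 to ALDH18A1 was 0.357 ± 0.0362 in DMSO, 0.368 ± 0.0171 in FK, 0.887 ± 0.0481 in Met and 0.946 ± 0.0585 in Met+FK (SD, n = 3). The ratios of the libraries with and without metformin did not overlap, and the difference was 2.53-fold (log2 1.34, exact permutation test, p = 0.005, adjusted 0.005).

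**Figure D3:**
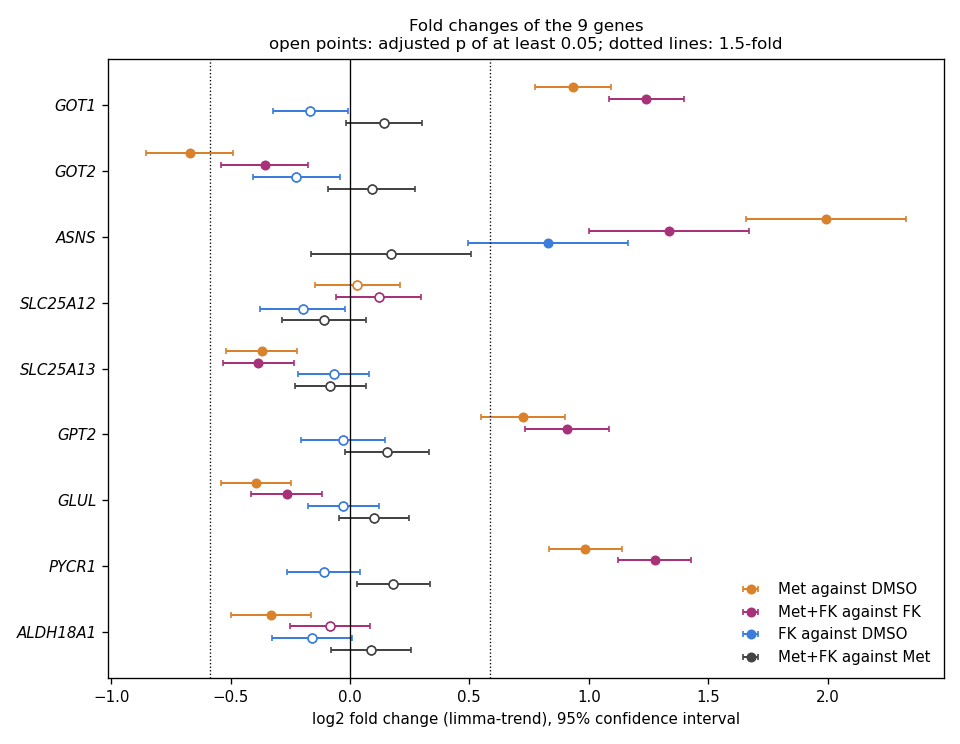
Log2 fold changes (x axis) of the 9 genes (y axis) in 4 comparisons, with 95% confidence intervals from limma-trend. Filled points have an adjusted p under 0.05, and dotted lines mark 1.5-fold. The points of Met against DMSO run from -0.67 (GOT2) to 1.99 (ASNS), whereas all 9 points of Met+FK against Met are open and lie between -0.11 and 0.18.

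FK866 alone moved ASNS, and the other 8 genes passed in some fits or in none. With FK against DMSO, 1 of 9 genes rose (ASNS, also the only DEG) and 0 fell by limma, whereas 11.3% of all genes tested rose, 9.84% fell and 3.49% were DEGs. At an unadjusted p under 0.05 there were 4 of the 9 genes, against 42.2% of all genes tested. As DEGs, edgeR and DESeq2 each called 1 of the 9, against 616 and 497 of all genes tested. With the replicate block 4 of the 9 passed, ASNS, GOT1, GOT2 and SLC25A12, as did 6854 of all genes tested against 3251 without it. With the GC and length trend removed and the block, 3 passed, ASNS, SLC25A12 and SLC25A13 (log2 -0.16, adjusted p = 0.0420), and GOT1 and GOT2 did not. In that fit 2364 of all 15324 genes passed. The other 8 log2 fold changes were all negative, from -0.22 to -0.03, and their adjusted p lay between 0.0665 and 0.816. The sign was not stable for PYCR1 and GPT2, which have the highest GC contents of the 9 canonical transcripts (63.1% and 56.4%). Their log2 fold changes became 0.14 and 0.15 with the GC and length trend removed (adjusted p = 0.265 and 0.115). The slope of expression over GC content was steeper in each FK library (-0.24 to -0.48 log2 units per 10% GC) than in each DMSO library (-0.04 to -0.20). It was -0.16 to -0.38 in the Met libraries and -0.18 to -0.29 in the Met+FK libraries, which partly overlap the DMSO range. The part of this slope in the results was not tested further.

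Metformin also changed 7 of the 9 genes when FK866 was present. With Met+FK against FK, 4 of the 9 genes rose (ASNS, PYCR1, GOT1 and GPT2) and 3 fell (SLC25A13, GOT2 and GLUL), against 20.5% and 21.7% of all genes tested. The 4 that rose were DEGs, against 18.6% of all genes. All 7 calls held in each of 18 alternative settings. ALDH18A1 and SLC25A12 did not pass. This comparison and Met against DMSO share no library.

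With Met+FK against DMSO, 4 genes rose and 4 fell, against 26.1% and 26.1% of all genes tested, and 4 were DEGs, against 25.1%. The comparison shares its DMSO libraries with Met against DMSO. ASNS was 4.49-fold higher, PYCR1 2.25-fold, GOT1 2.11-fold and GPT2 1.84-fold. GOT2 had a log2 fold change of -0.58 (adjusted p = 5.22e-05), just inside the 1.5-fold limit of 0.585, SLC25A13 of -0.45 and GLUL of -0.29. ALDH18A1 had -0.24 (adjusted p = 0.0180), and this call was lost with libraries scaled to the same total (adjusted p = 0.0830), without replicate 1 of DMSO (0.0771) or without replicate 1 of Met+FK (0.0937).

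Adding FK866 to metformin changed none of the 9 genes past the threshold. With Met+FK against Met, 0 of 9 passed by limma, and also 0 by edgeR and by DESeq2. Of all genes tested, 15 (0.0976%) passed by limma, 16 by edgeR and 74 by DESeq2. With the replicate number as a block, 0 of the 9 passed by limma, against 120 of all genes tested. PYCR1 then had an adjusted p of 0.235. The confidence intervals given here come from the fit without this block. At an unadjusted p under 0.05 there was 1 of the 9 genes, PYCR1, against 6.84% of all genes tested. Its log2 fold change was 0.18 (95% confidence interval 0.03 to 0.33, adjusted p = 0.656 by limma). All 3 Met+FK libraries were above all 3 Met libraries for PYCR1 and GOT1 (log2 0.14, interval -0.02 to 0.30, adjusted p = 0.773 by limma for GOT1). The share of all genes tested that separate in this way was not computed, so no conclusion is drawn from it. Over the 9 genes, the lowest bound of a confidence interval was -0.29 (SLC25A12) and the highest 0.51 (ASNS), while GLUL had -0.05 to 0.25. Changes within the interval of a gene were not resolved for that gene with 3 libraries per treatment.

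The interaction, that is the effect of FK866 with metformin minus its effect without, also passed for 0 of 9 genes by limma and by edgeR, against 9 genes (0.0585%) of all tested. At an unadjusted p under 0.05 there were 5 of the 9, against 30.5% of all genes tested: ASNS with a log2 value of -0.66, and GOT1 (0.31), GOT2 (0.31), PYCR1 (0.29) and ALDH18A1 (0.25). These 5 passed with the replicate number as a block, at adjusted p = 0.00665 for ASNS, 0.0192 for GOT1, 0.0264 for PYCR1, 0.0319 for GOT2 and 0.0472 for ALDH18A1 by limma, in a fit in which 4914 of all genes tested passed. With the GC and length trend removed and the same block, 0 of the 9 passed (adjusted p = 0.0600 for ASNS, 0.114 for GOT1, 0.914 for PYCR1, 0.216 for GOT2 and 0.196 for ALDH18A1), and 448 of all genes tested did. DESeq2 called ASNS (adjusted p = 0.0469), in a fit in which 695 of all genes tested passed. Without replicate 1 of FK, limma called GOT1 (adjusted p = 0.0391), and 1845 of all genes tested passed. The value of PYCR1 became -0.02 with the GC and length trend removed (adjusted p = 0.960). Calls on the interaction thus differed between fits.

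Per kb of canonical transcript, the order of the 9 mRNAs changed with metformin. In DMSO it was GOT2 (5621 ± 277, SD, n = 3), GOT1 (4296 ± 112), ALDH18A1 (2225 ± 125), SLC25A13 (1301 ± 17.5), PYCR1 (1169.7 ± 79.6), GLUL (810.0 ± 30.4), GPT2 (380.2 ± 21.4), SLC25A12 (243 ± 12) and ASNS (45.7 ± 9.15). No neighbours in this order overlapped, and FK gave the same order. In Met, GOT1 (8212 ± 281) stood above GOT2 (3534 ± 289) and PYCR1 (2314 ± 56.9) above ALDH18A1 (1769 ± 118) and SLC25A13 (1008 ± 16.4). GPT2 (629.7 ± 47.9) and GLUL (617 ± 27) followed, with ranges that overlapped, before SLC25A12 (248 ± 19.2) and ASNS (181 ± 20.2). Met+FK had the same order as Met. Levels per length assume the canonical transcript, and that of ASNS carries the overlap described above.

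**Figure D4:**
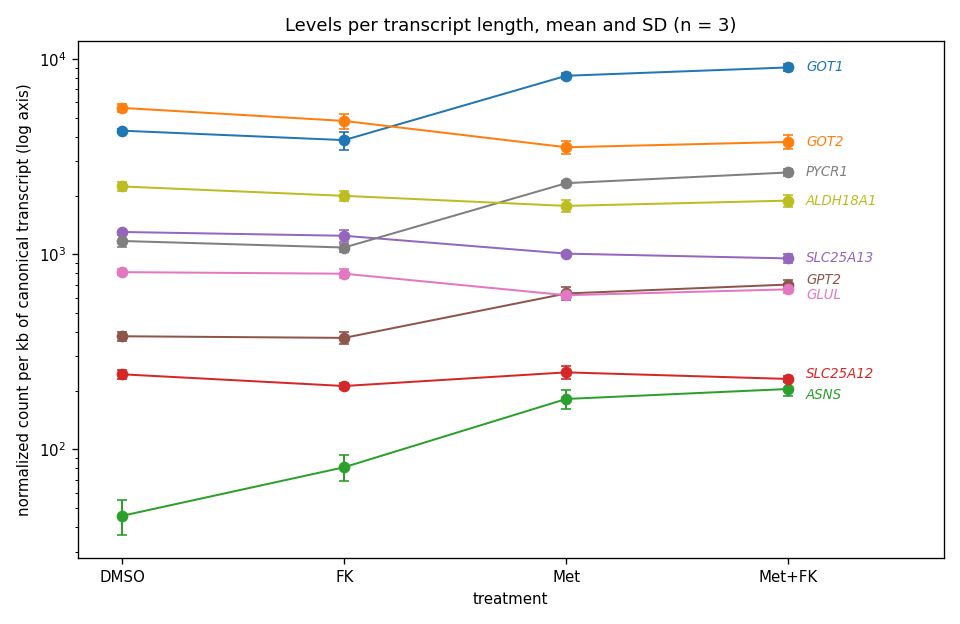
Normalized count per kb of canonical transcript (y axis, log scale) of the 9 genes by treatment (x axis), as mean and SD of 3 libraries, with lines joining the means of each gene. The lines of GOT1 and GOT2 cross between the treatments without and with metformin, as do those of PYCR1 with ALDH18A1 and SLC25A13.

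Across the 12 libraries the 9 genes split by sign. Pearson's r of log2 values, given as a description over libraries that share treatments, was 0.99 for GOT1 with PYCR1, 0.99 for GOT1 with GPT2 and 0.98 for GPT2 with PYCR1. Among the genes that fell, GLUL with GOT2 had r = 0.97 and GOT2 with ALDH18A1 r = 0.93, and GOT1 with GOT2 had r = -0.81. SLC25A12 had no r beyond -0.45 (with GLUL) with any of the other 8. Among 11520 genes whose mean reached 100, the 3 most like GOT1 were SARS (r = 0.998), MARS (0.996) and LARP6 (0.995), and the 3 most like PYCR1 were UPP1 (0.997), CARS (0.995) and LARP6 (0.995). Those most like GPT2 were RGS3 (0.995), AARS (0.994) and PIP4K2C (0.994), and those most like ASNS were KANSL1L (0.989), MSC-AS1 (0.988) and LURAP1L (0.986). GOT2 was most like PPP5C (0.996), DDX39B (0.995) and ELAC2 (0.995), GLUL most like TRIM28 (0.989), HNRNPL (0.988) and DHCR7 (0.985), and SLC25A13 most like CYB5B (0.989), TPM3 (0.989) and SLBP (0.987). ALDH18A1 was most like KAT2A (0.980), ABCF3 (0.980) and CYFIP1 (0.978), while for SLC25A12 the highest values were lower, with BLVRA (0.879), LRATD1 (0.860) and NUDT13 (0.836).

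Other genes of these pathways, taken from 3 lists, also moved in both directions with metformin. Their counts with Met against DMSO are read against all genes tested, of which 24.9% rose and 25.9% fell, with a median log2 fold change of 0.01. Of 15 genes of aspartate supply and use, 13 were tested, and 3 rose, 4 fell and 6 did not pass (median log2 fold change -0.07). NARS, the cytosolic asparaginyl-tRNA synthetase, was the member of this list that rose over 2-fold (log2 1.05, SE 0.14, adjusted p = 2.55e-05). Of 19 genes of glutamine and glutamate metabolism, 17 were tested, and 9 rose, 4 fell and 4 did not pass (median 0.31). SLC7A11, the cystine-glutamate exchanger, rose most in this list (log2 1.93, SE 0.18), followed by PSAT1, the aminotransferase of serine synthesis that uses glutamate (log2 1.22, SE 0.06). SLC25A18, a mitochondrial glutamate carrier, fell (log2 -1.65, SE 0.33, adjusted p = 0.000782) at low levels, from a mean of 29.01 to 9.03.

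Of 16 genes of proline and ornithine metabolism, 11 were tested, and 4 rose, 2 fell and 5 did not pass (median 0.06). EPRS, the glutamyl-prolyl-tRNA synthetase, rose (log2 1.19, SE 0.14, adjusted p = 9.63e-06). PYCR3, the cytosolic relative of PYCR1, fell (log2 -1.12, SE 0.18, adjusted p = 0.000151), from a mean of 118 to 54.3, opposite to PYCR1. With FK against DMSO, where 11.3% of all genes tested rose and 9.84% fell, 2 of 13 rose and 1 fell in the aspartate list, 7 of 17 rose and 2 fell in the glutamine list, and 2 of 11 rose in the proline list. NARS (log2 0.42), SLC7A11 (1.04), PSAT1 (0.28) and EPRS (0.59) were among those that rose. With Met+FK against Met, 0 of the 41 genes tested in the 3 lists passed by limma, and also 0 by edgeR and by DESeq2. Of all genes tested, 15 (0.0976%) passed by limma, 16 by edgeR and 74 by DESeq2, so 0 of 41 does not set these lists apart. An unadjusted p under 0.05 was found for 1 of the 41 by limma, 2 by edgeR and 0 by DESeq2, against 6.84% of all genes tested by limma.

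**Figure D5:**
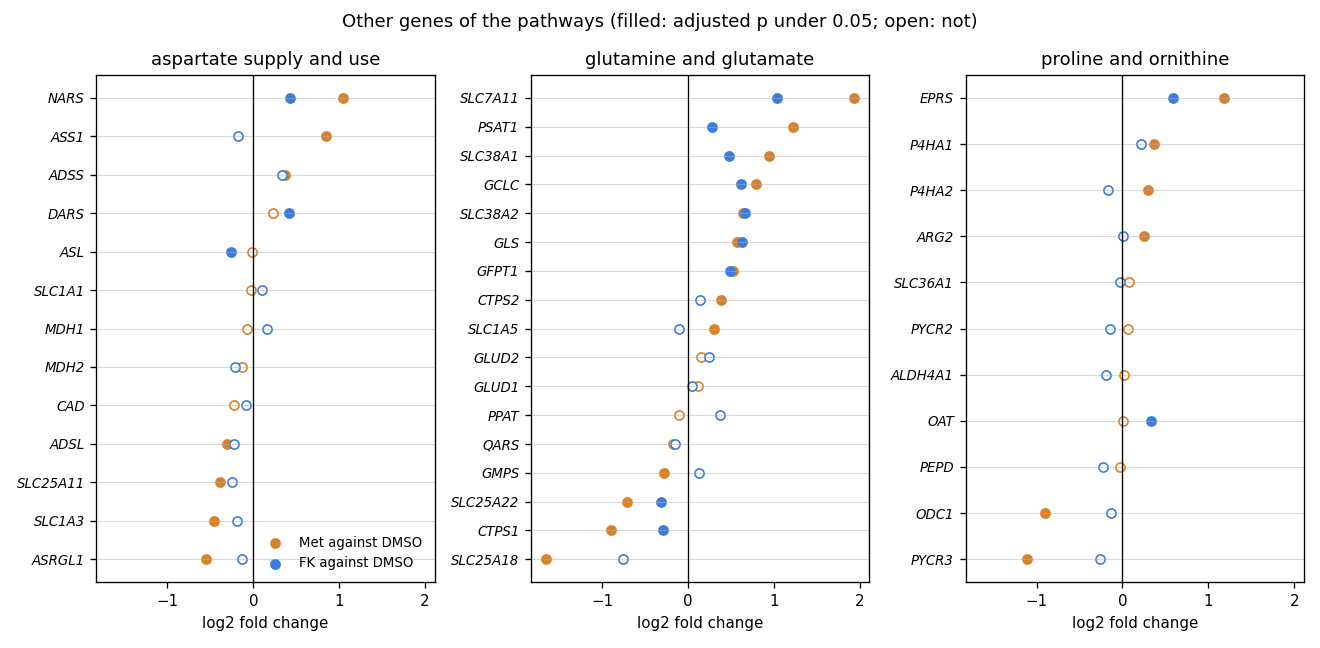
Log2 fold changes (x axes) of other genes (y axes) of the 3 pathway lists with Met and with FK against DMSO. Filled points have an adjusted p under 0.05, open points do not. NARS, SLC7A11, PSAT1 and EPRS lie over 1 with Met, and SLC25A18 and PYCR3 under -1.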

How the data were processed

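RNA from 12 libraries of KP4 cells, 3 for each of 4 treatments, had been prepared with the Kapa RNA HyperPrep kit with RiboErase and sequenced as paired ends. According to the methods, adapter and quality trimming (cutadapt) was followed by STAR alignment to hg38, featureCounts quantification per gene and DESeq2 normalization. The annotation and strand setting are not given in the sources used here. What the authors deposited is therefore a normalized signal: counts over a size factor for each library. Read pairs were recovered from the steps between values, 100% of which gave whole numbers within a tolerance of 0.1. Of 36366 genes found in GENCODE 44, 83.6% had the same start and end.

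The 9 genes, the lists and the tests were chosen with earlier results of these data known. limma-trend (limma 3.58.1, R 4.3.3) was fitted on log2(normalized count + 1) of all 12 libraries, with 1 mean per treatment, over the 15376 genes whose mean reached 10. p-values were adjusted with the Benjamini-Hochberg method for each comparison. Because the pseudocount is 1, fold changes of low genes are slightly understated. In simulated counts for Met against DMSO with 200 of 15376 genes changed 2-fold, the test called 165 of them and 2 others. These counts were drawn independently for each library, without trends over GC content or replicate number. Far fewer genes were changed than the 7823 that passed in the data. The simulation therefore does not give the performance of the test on these data. Within-library ratios were compared with exact permutation tests, on pairs of genes that were also tested singly in the same libraries. Alternatives were edgeR 4.0.16 and DESeq2 1.42.0 on the recovered read pairs, TMM and same-total scaling, pseudocounts of 0.1 and 10, other filters, removal of the GC and length trend (loess, span 0.3), a replicate block, the 6 libraries of a comparison alone and leaving out each library. Deviations of same-numbered libraries correlated over 0.1 for all 3 numbers for FK with DMSO (r of 0.252, 0.420 and 0.219) and for Met+FK with Met (0.171, 0.200 and 0.226), which were read as paired, but not for the other comparisons. With the GC and length trend removed it held for FK with DMSO only, since Met+FK with Met gave 0.159, 0.0964 and 0.0738.

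Named genes are the 9, the genes of 3 pathway lists with an adjusted p under 0.05 and over 2-fold with Met against DMSO, and the 3 genes most like each of the 9 by Pearson's r over 12 libraries. Promoter windows came from RefSeq (GRCh38.p14).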

Additional observations from a re-analysis of the deposited data

How the results depend on the processing

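With Met against DMSO, the 8 genes that passed kept their direction and an adjusted p under 0.05 in all 18 alternatives. Ratio differences were recomputed only with other pseudocounts, without each library and with the replicate block, and all 60 kept direction and call. Leaving out a library could not change these calls, since the ratios with and without metformin did not overlap. The ratios were not recomputed with the GC and length trend removed. Without the 1.5-fold limit, the number of the 9 genes called was 8 for Met against DMSO, 7 for Met+FK against FK and 8 for Met+FK against DMSO. Of all 15376 genes tested, 7823, 6478 and 8033 passed in these comparisons. With the GC and length trend removed, the number of the 9 was 8 for Met+FK against FK and 9 for Met+FK against DMSO. There 8264 and 9199 of 15324 genes passed. For Met+FK against DMSO the number was 7 with same-total scaling (8173 of all genes) and without replicate 1 of DMSO (6877) or of Met+FK (6920). GOT2 with Met against DMSO dropped under 1.5-fold with same-total scaling (log2 -0.55) and with the GC and length trend removed (-0.57). Same-total scaling moved the median of all genes for Met against DMSO from 0.01 to 0.13. With FK against DMSO, 0 of the 9 genes passed when only the 6 libraries compared were fitted, against 152 of all 15376 genes tested. Interaction calls numbered 5 with the replicate block and 0 with the block and the GC and length trend removed (448 calls over all genes against 4914 with the block alone). They numbered 1 with DESeq2 (695 over all genes). Leaving out a library gave 0 to 1, 1 being without replicate 1 of FK (1845 over all genes). The replicate block otherwise changed calls only for GOT1, GOT2 and SLC25A12 with FK against DMSO, and with the GC and length trend removed for SLC25A13.

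Some small differences changed sign. SLC25A12 with Met against DMSO was -0.1294 with the GC and length trend removed, with or without the block, and -0.03181 to 0.06317 when a library was left out. With FK against DMSO, removing that trend turned GPT2 to 0.1476 and PYCR1 to 0.1375, and leaving out a library gave -0.08188 to 0.008656 for GPT2 and -0.06754 to 0.01039 for GLUL. SLC25A12 with Met+FK against DMSO was 0.003912 with same-total scaling. In the interaction, removing the trend gave -0.03545 for GPT2, -0.01661 for PYCR1 and 0.09032 for SLC25A13, and leaving out a library gave -0.05842 to 0.03591 for SLC25A13. The cause of these changes was not tested. Of the other fold changes recomputed, 974 kept direction and call, 19 gained a call and 4 lost it. Counting depth limits ASNS most, with as few as 82 read pairs in a library.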
